A study of Mus musculus with 10 samples.

Results

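The Hox genes encode transcription factors that carry the positional identity of cells along the body axis, and they were followed here in endothelial cells of the mouse. All rows of the count table whose symbol is Hox, a cluster letter (a, b, c or d) and a number were taken, which gave 39 genes of 23284 symbols, with 11 in the HoxA cluster on chromosome 6, 10 in HoxB on chromosome 11, 9 in HoxC on chromosome 15 and 9 in HoxD on chromosome 2 of the mm9 build. RNA was measured in 3 populations, the lymph node lymphatic endothelial cells (LN-LEC, 4 libraries), the lymph node blood endothelial cells (LN-BEC, 3 libraries) and the diaphragm lymphatic endothelial cells (D-LEC, 3 libraries). All mice were untreated wild-type C57BL/6 (B6) animals of 6 to 8 weeks, so that no allele or agent separated the groups. CD45-depleted cells positive for CD31 were sorted by PDPN, a surface protein of lymphatic but not of blood endothelium, and each library was amplified from the cells of several pooled mice. The lymph node samples combined inguinal, axillary, brachial, cervical and mesenteric nodes, which lie at different body levels, so their values are averages over these sites, and no library tells the nodes apart. A comparison of LN-LEC with LN-BEC holds the organ constant, whereas D-LEC came from another organ. The labels do not give the share of each node in a library, so the body level may still differ between LN-LEC and LN-BEC.

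Hox genes lie in 4 clusters that arose by duplication, and genes of the same number in different clusters are paralogues. Within a cluster, the genes with low numbers are used from the head end of the embryo onwards, and those with high numbers are added towards the tail and in the distal limb. Adult cells, endothelium included, commonly keep the Hox pattern of the place in which they arose. Their proteins bind DNA through the homeodomain, often beside PBX and MEIS proteins.

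The libraries held 22429940 to 48906070 counted fragments. Hox genes took 752 to 874 of every 1000000 fragments in LN-LEC libraries, 550.4 to 658 in D-LEC and 420.2 to 499 in LN-BEC. Of 7 lymphatic markers, 6 had counts in every population and Ccl21a, which has near-identical copies, was listed at 0, and their summed normalized count was 134735 to 151724 in LN-LEC, 598941 to 622973 in D-LEC and 3239.6 to 10199 in LN-BEC. All 7 blood endothelial markers had counts as well, and they summed to 17540.5 to 20494 in LN-LEC, 5988 to 7388 in D-LEC and 161789 to 172061 in LN-BEC. The 5 markers of all endothelium, each with counts in every population, summed to 84395 to 89527, 89984 to 99352 and 174812 to 189497 in the same order. LN-BEC 3 held the most lymphatic marker RNA of the LN-BEC libraries, at 10199 against 4850.4 in LN-BEC 1 and 3239.6 in LN-BEC 2, and the changes of Hoxd9 and Hoxd10 and the HoxD shares that include it are also given without it. In these bulk samples, fewer cells that use a gene and less RNA of it per cell cannot be told apart.

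The part of each gene that names the family is the homeobox, the 180 bases that encode the homeodomain, and in all 39 genes it lay within the last exon of the row (reference sequence, NCBIM37, the same assembly as mm9). The homeoboxes of the group 10 genes of HoxD (chr2:74532198-74532377, plus strand) and HoxA (chr6:52182553-52182732, minus strand) are shown, 5′ to 3′ on the coding strand. These paralogues were chosen because Hoxd10 was higher and Hoxa10 lower in both LEC populations than in LN-BEC. Capitals in Hoxa10 mark the bases that differ from Hoxd10.
Hoxd10: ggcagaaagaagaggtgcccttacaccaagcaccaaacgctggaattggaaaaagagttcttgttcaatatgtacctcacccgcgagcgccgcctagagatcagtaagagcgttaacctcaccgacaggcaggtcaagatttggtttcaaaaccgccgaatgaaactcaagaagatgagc
Hoxa10: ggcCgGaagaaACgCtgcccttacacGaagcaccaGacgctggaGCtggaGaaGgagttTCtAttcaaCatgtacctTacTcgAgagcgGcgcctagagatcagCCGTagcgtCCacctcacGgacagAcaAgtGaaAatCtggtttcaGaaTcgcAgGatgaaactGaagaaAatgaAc
They differed at 38 bases (identity 78.9%), and the longest run without a difference was 14 bases, which is shorter than the reads of 100 bases. Over the whole exons, 0 of the 39 genes shared an identical run of 100 bases with another Hox gene. Exon bases that also belong to another row were found in 2 genes, 28 bases of Hoxa3 (with the noncoding 2700086A05Rik) and 525 bases of Hoxa11 (with the antisense gene Hoxa11as), and reads there cannot be told apart, since the counting was run with no strand option.

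All 3 populations kept Hoxa2 to Hoxa7, Hoxb2 to Hoxb7 and HoxD genes between Hoxd3 and Hoxd10, and nearly lacked HoxC. At the limit of detection used here, LN-BEC reached higher numbers in HoxA and HoxB than the LEC. A gene was taken as detected when its mean reached 1 FPKM (fragments per kilobase of exon and per 1000000 counted fragments), the scale used here for levels of different genes. By that rule 19 of 39 genes were detected in LN-BEC, 17 in LN-LEC and 17 in D-LEC, and the same 17 genes were detected in all 3. HoxA ran from Hoxa2 to Hoxa7 in both LEC populations and to Hoxa10 in LN-BEC, with Hoxa9 just below the limit there. HoxB ran from Hoxb2 to Hoxb7 in both LEC populations and further to Hoxb9 in LN-BEC, with a gap at Hoxb8 in all 3. HoxD genes with detected levels were Hoxd3, Hoxd4, Hoxd8, Hoxd9 and Hoxd10 in every population, and 0 of the 9 HoxC genes reached 1 FPKM in any. The 2 genes detected in LN-BEC alone were Hoxa10 and Hoxb9. In LN-LEC, Hoxa10 was present below the limit, at a mean of 0.459 FPKM with 32, 28, 40 and 73 counts. The HoxA border between LN-LEC and LN-BEC thus depends on the limit of 1 FPKM.

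**Figure D1:**
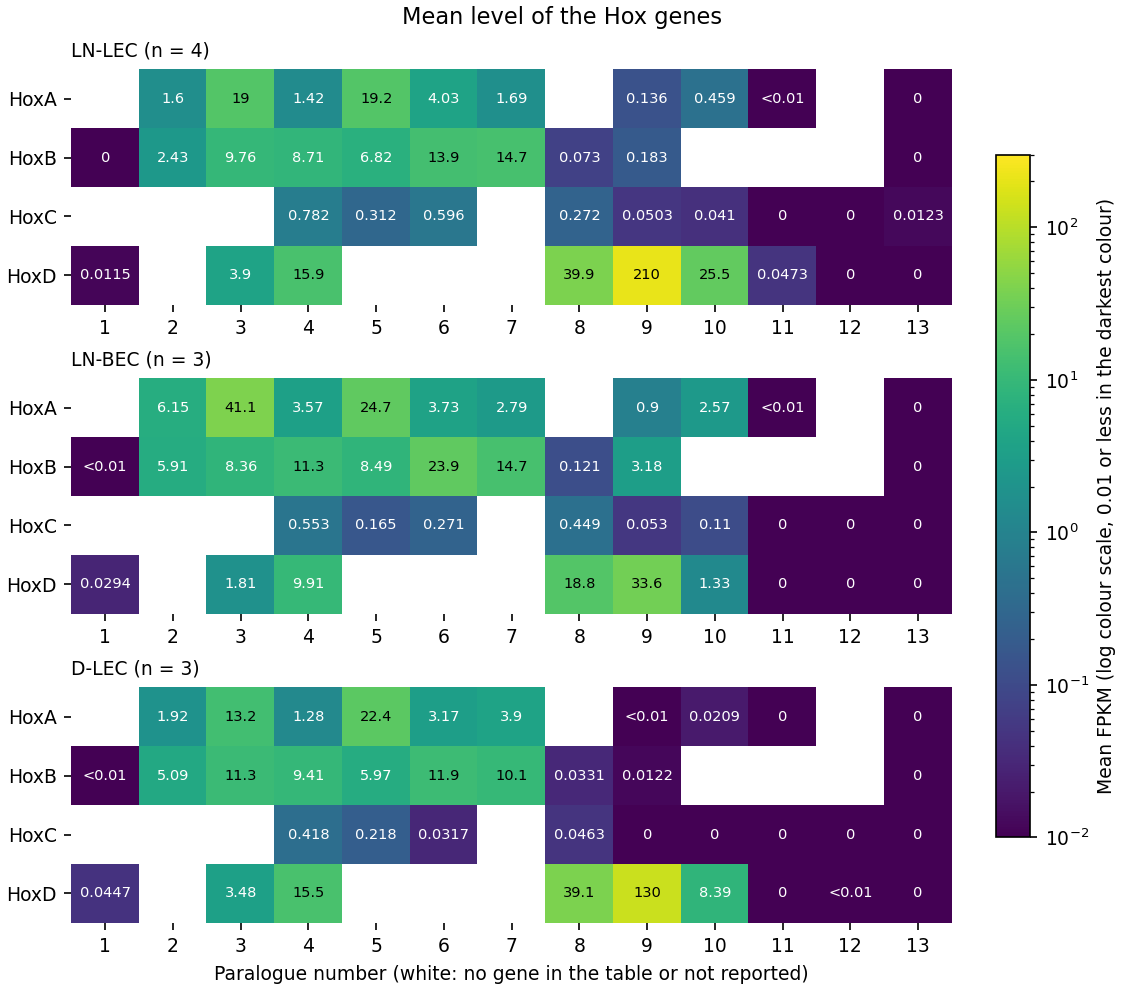
Mean FPKM of each Hox gene, with the 4 clusters as rows and the paralogue numbers 1 to 13 as columns, in LN-LEC (n = 4), LN-BEC (n = 3) and D-LEC (n = 3); colour is on a log scale and white cells have no gene in the table or are not reported. Hoxd9 is the brightest cell in the LEC panels at 210.4 and 129.7 FPKM, Hoxa3 is the brightest in LN-BEC at 41.1, and Hoxa9, Hoxa10 and Hoxb9 are near 0 in D-LEC.

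Hoxd9 was the most abundant Hox transcript per length in both LEC populations, at 210.4 ± 14.3 FPKM (SD, n = 4) in LN-LEC and 129.7 ± 32.5 (SD, n = 3) in D-LEC. It ranked 248 of 15340 tested genes in LN-LEC and 488 in D-LEC. In LN-BEC the leading Hox gene by its mean was Hoxa3 at 41.1 ± 9.39 FPKM (SD, n = 3), followed by Hoxd9 at 33.6 ± 7.99, and the SDs of these levels overlap. Within libraries, Hoxa3 and Hoxd9 were at 45.1 and 30.5 FPKM in LN-BEC 1 and at 47.7 and 27.7 in LN-BEC 2. The order was reversed in LN-BEC 3, the library with the most lymphatic marker RNA, at 30.3 and 42.7 FPKM. HoxD supplied 71.4% to 75.7% of the summed Hox FPKM in the LN-LEC libraries, 61.9% to 71.7% in D-LEC and 24.5% to 34.4% in LN-BEC, with no overlap between LN-BEC and the LEC libraries. Without LN-BEC 3 the LN-BEC range was 24.5% to 27.7%. HoxA and HoxB supplied 32% to 40.8% and 32.4% to 34.2% in LN-BEC, against 10.3% to 12.4% and 13.5% to 15.7% in LN-LEC and 13.8% to 17.5% and 14.4% to 22.2% in D-LEC. HoxC stayed at or under 0.818% in every library. These shares are descriptions and were not tested.

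**Figure D2:**
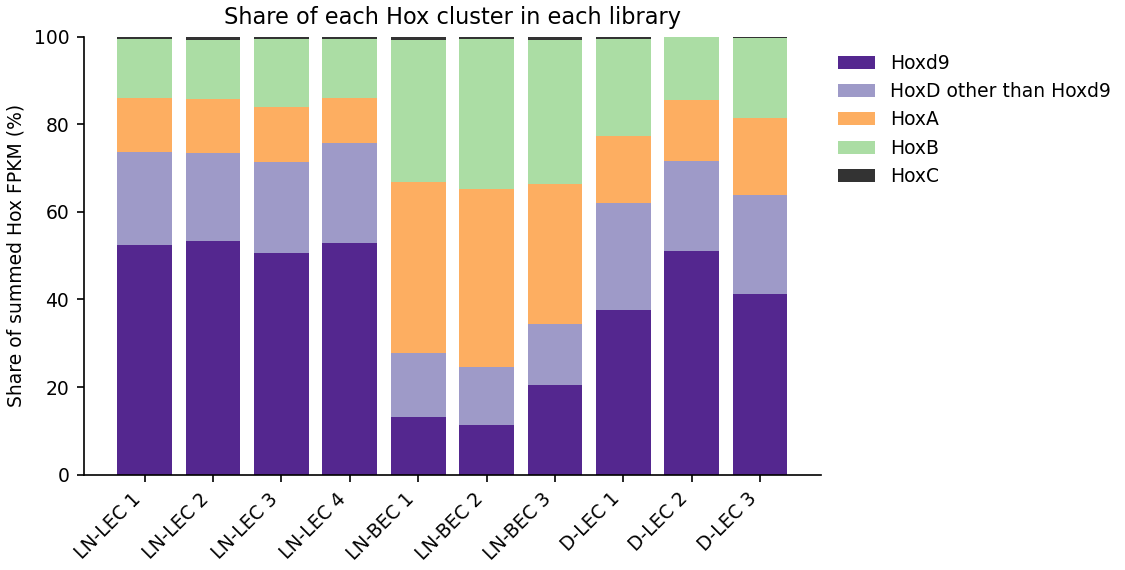
Share of the summed FPKM of all 39 Hox genes (y axis, percent) that Hoxd9, the other HoxD genes, HoxA, HoxB and HoxC took in each of the 10 libraries (x axis). Hoxd9 alone took 50.6% to 53.3% in LN-LEC, 37.6% to 51% in D-LEC and 11.3% to 20.5% in LN-BEC.

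In the comparison of lymphatic with blood endothelium of pooled lymph nodes, 5 HoxD genes were higher in LN-LEC, and 13 HoxA and HoxB genes were higher in LN-BEC. Of 30 Hox genes tested (mean normalized count of at least 1 in a population), 5 were called higher in LN-LEC at an adjusted p under 0.05. They made up 16.7% of the tested Hox genes, below the background of 19.8% of all tested genes. The 5 were Hoxd3, Hoxd4, Hoxd8, Hoxd9 and Hoxd10. In LN-BEC 13 Hox genes were called higher, 8 of them HoxA and 5 HoxB, against a background of 18.4%, and they made up 43.3% of the tested Hox genes. With a fitted fold of at least 5, the calls were 2 in LN-LEC (background 4.49%), Hoxd9 and Hoxd10, and 4 in LN-BEC (background 5.35%), Hoxa9, Hoxa10 and Hoxb9 among them. The median log2 fold change of the 30 genes was -0.58, beside -0.0081 over all genes. Without LN-BEC 1 or without LN-BEC 2, Hoxd9 fell just under 5-fold, with a log2 fold change of 2.32 or 2.27 in place of 2.42, and the 5-fold count in LN-LEC was then 1.

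Between LN-BEC and D-LEC, which differ in both organ and vessel type, the called HoxD genes were again lower in LN-BEC and the called HoxA and HoxB genes higher. LN-BEC was higher in 16 Hox genes (53.3% of those tested, background 25.6%), 6 HoxA, 6 HoxB and 4 HoxC. D-LEC was higher in 5 (16.7% of those tested, below the background of 22.5%), which were all HoxD. A fitted fold of at least 5 was called in 7 genes for LN-BEC (23.3%, background 10.4%), Hoxa9, Hoxa10, Hoxb9, Hoxc6, Hoxc8, Hoxc9 and Hoxc10. For D-LEC it was called in 1 gene (3.33%, background 4.84%), Hoxd10. The fitted folds of Hoxc9 and Hoxc10 are set against 0 counts in D-LEC and depend on the prior count, and by the floor of 3 counts they were at least 3.08-fold and at least 7.08-fold higher. The median log2 fold change of the 30 genes was 0.66, beside 0.046 over all genes. This comparison shares the LN-BEC libraries with the preceding one, so that the 2 sets of calls are not independent. Without LN-BEC 1 or LN-BEC 2 the log2 fold change of Hoxd10 was -2.27 or -2.32, just under 5-fold, and the D-LEC count was then 0.

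Between the LEC of the 2 organs, more Hox genes were called higher in lymph node than in diaphragm cells. LN-LEC was higher in 10 Hox genes (background 24.1%), among which Hoxa9, Hoxa10, Hoxb9, Hoxc6, Hoxc8, Hoxc10, Hoxd9 and Hoxd10 were joined by Hoxa3 and Hoxb7. D-LEC was higher in 2 (6.67% of those tested, background 21.7%), Hoxa7 and Hoxb2, and 18 were not called. With a fitted fold of at least 5, LN-LEC was higher in 6 genes (background 8.14%), Hoxa9, Hoxa10, Hoxb9, Hoxc6, Hoxc8 and Hoxc10, and D-LEC in 0 (background 4.02%), where edgeR and DESeq2 each called 2 genes at any fold and 4 had an unadjusted p under 0.05. The LN-LEC folds rest on few D-LEC counts. Hoxc10 was at least 1.98-fold higher by the floor, and the counting intervals of the ratios began at 3.14 for Hoxa9 and 4.94 for Hoxb9. When a mean of at least 1 FPKM was required for testing, the LN-LEC counts were 6 and, with at least 5-fold, 2, because Hoxa9 and the HoxC genes were not tested. The count of 10 is a share of 33.3% of the tested Hox genes, and the median log2 fold change of the 30 was 0.40, beside 0.026 over all genes.

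**Figure D3:**
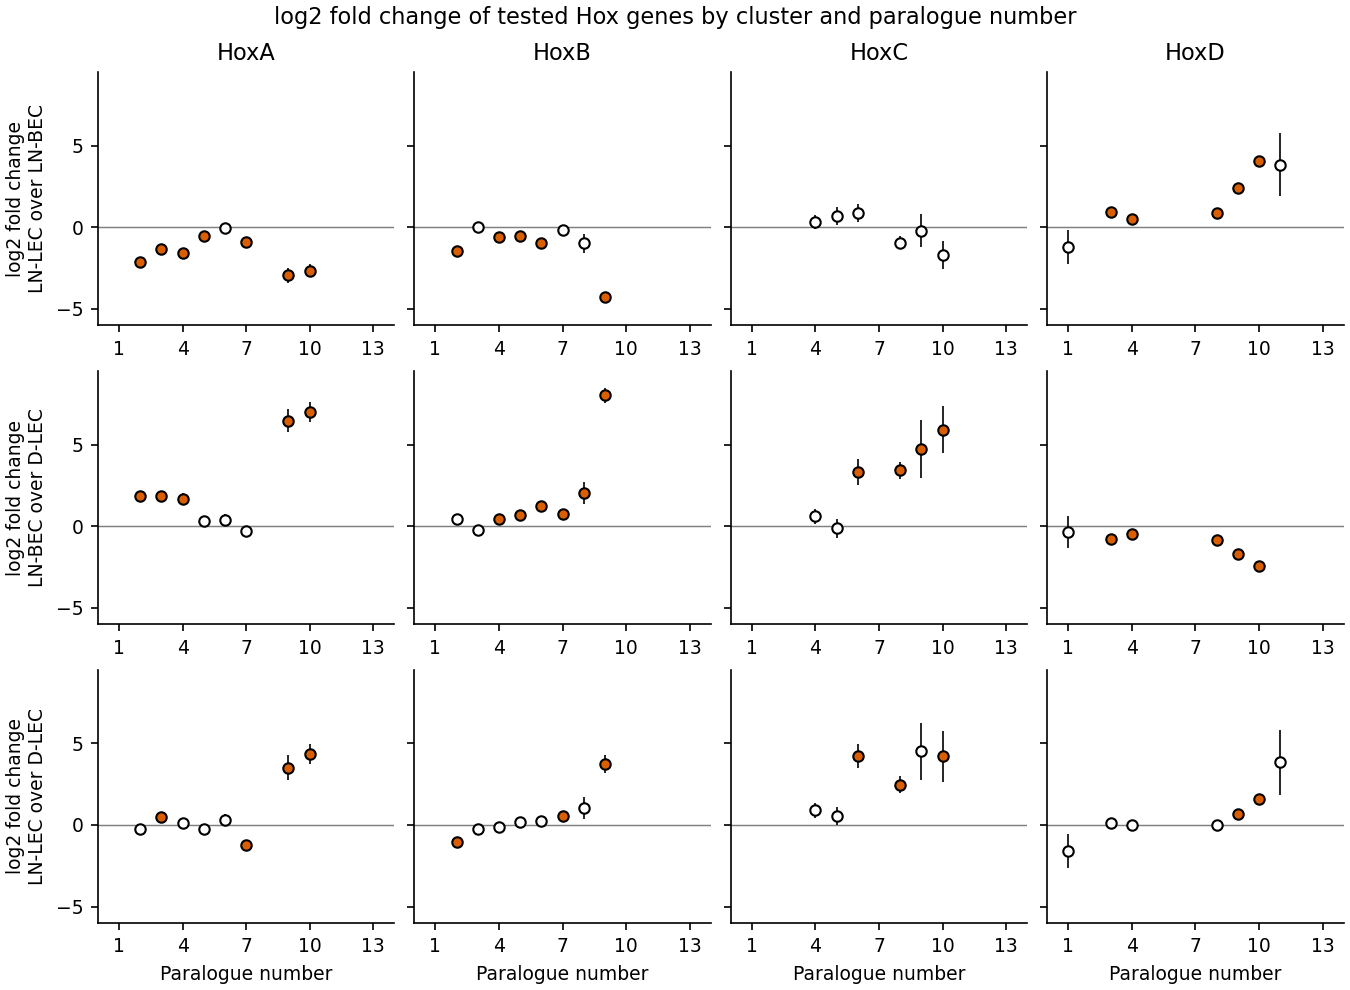
log2 fold change (y axis, edgeR fit, bars ± SE) of tested Hox genes by paralogue number (x axis), with a column of panels for each cluster and a row for each comparison; filled points were called at an adjusted p under 0.05 and open points were not. In HoxD the change over LN-BEC is 0.91 at Hoxd3, 0.48 at Hoxd4 and 4.04 at Hoxd10, whereas Hoxb9 sits at -4.26, and values of genes with counts near 0 in a population, such as Hoxc9, Hoxc10 and Hoxd11, depend on the prior count of the fit.

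Hoxd9 and Hoxd10, the HoxD members of groups 9 and 10 that pattern the posterior trunk and the limb, set the LEC apart from LN-BEC. Hoxd9 had normalized counts of 12369.9, 13788, 12489 and 12809 (LN-LEC), 2068, 1879 and 3365 (LN-BEC), and 6336, 10603 and 7532 (D-LEC). The 3 populations did not overlap, and LN-BEC 3 was the highest of the LN-BEC libraries. Its log2 fold change was 2.42 ± 0.24 (SE, adjusted p = 1.47e-05) for LN-LEC over LN-BEC, -1.74 ± 0.24 (SE, adjusted p = 0.000155) for LN-BEC over D-LEC and 0.68 ± 0.22 (SE, adjusted p = 0.0291) for LN-LEC over D-LEC. The last of these was not called without LN-LEC 2, LN-LEC 3, LN-LEC 4, D-LEC 1 or D-LEC 3, with adjusted p-values from 0.0508 to 0.112 and log2 fold changes from 0.52 to 0.69.

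Hoxd10 showed the same order with wider steps, at 1237, 1356, 1257 and 1482 (LN-LEC), 60.4, 65.7 and 122 (LN-BEC), and 406, 469.9 and 469 (D-LEC). Every LN-LEC library was above every D-LEC library, and these were above every LN-BEC library. The differences amounted to 16.5-fold over LN-BEC, with a log2 fold change of 4.04 ± 0.21 (SE, adjusted p = 8.39e-09), and to 3.01-fold over D-LEC, with 1.59 ± 0.18 (SE, adjusted p = 9.76e-06). For LN-BEC over D-LEC the log2 fold change was -2.45 ± 0.21 (SE, adjusted p = 6.22e-07). LN-BEC 3, which was richest in lymphatic markers, held the highest Hoxd10 count of its population as well. Without it, the log2 fold change over LN-BEC was 4.40 for Hoxd10 and 2.71 for Hoxd9, and that of LN-BEC over D-LEC was -2.82 and -2.03. In LN-BEC 3, Hoxd10 was at 9.14% of its LN-LEC mean and Hoxd9 at 26.2%. There, 6 genes of LEC were at 4.31% to 6.66%, the listed markers Lyve1, Pdpn, Prox1, Reln and Mmrn1, and Tbx1, which was added after its values were seen. In LN-BEC 1 and LN-BEC 2 the same genes were at 0.941% to 2.72%, Hoxd10 at 4.53% and 4.93%, and Hoxd9 at 16.1% and 14.6%. Flt4, a further marker of the lymphatic list that blood vessels can also express, was at 11.9% to 16.6% in the LN-BEC libraries. The part that lymphatic RNA has in the Hoxd9 and Hoxd10 counts of LN-BEC was not tested.

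The neighbours of Hoxd9 towards the low numbers were lower in LN-BEC and were not called between the 2 LEC populations. Hoxd8 was at 1552, 1633, 1626 and 1822 (LN-LEC), 928, 852 and 951 (LN-BEC), and 1656, 1673 and 1662 (D-LEC), with LN-BEC below both LEC populations and the LEC libraries overlapping. The log2 fold change was 0.88 ± 0.084 (SE, adjusted p = 1.38e-06) for LN-LEC over LN-BEC and 0.017 ± 0.082 (SE, adjusted p = 0.888) for LN-LEC over D-LEC. Hoxd4 had 1218, 1230.1, 1251 and 1015 (LN-LEC), 896, 899 and 769 (LN-BEC), and 1207, 1256 and 1084 (D-LEC), and its log2 fold changes were 0.48 ± 0.10 (SE, adjusted p = 0.00192) and 0.015 ± 0.10 (SE, adjusted p = 0.921) in the same order. Hoxd3 had 342, 314, 314 and 349 (LN-LEC), 186, 188 and 159 (LN-BEC), and 266, 351 and 290.0 (D-LEC), with 0.91 ± 0.14 (SE, adjusted p = 0.000113) and 0.15 ± 0.13 (SE, adjusted p = 0.403). In these genes too, LN-BEC did not overlap with either LEC population. The excess of LN-LEC over LN-BEC stood at 1.88-fold in Hoxd3, 1.39-fold in Hoxd4, 1.84-fold in Hoxd8, 5.34-fold in Hoxd9 and 16.5-fold in Hoxd10. Beyond Hoxd10 the cluster was close to silent, with Hoxd11 at 7 counts in all of LN-LEC and 0 elsewhere, a ratio to LN-BEC of at least 1.88 (3 counts over the group as the floor). Of these counts, 2 were in LN-LEC 1 and 5 in LN-LEC 4, and Hoxd11 was not called in any comparison. Hoxd12 had 1 count and Hoxd13 had 0 over all 10 libraries, and Hoxd1, at the other end, had 16.

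**Figure D4:**
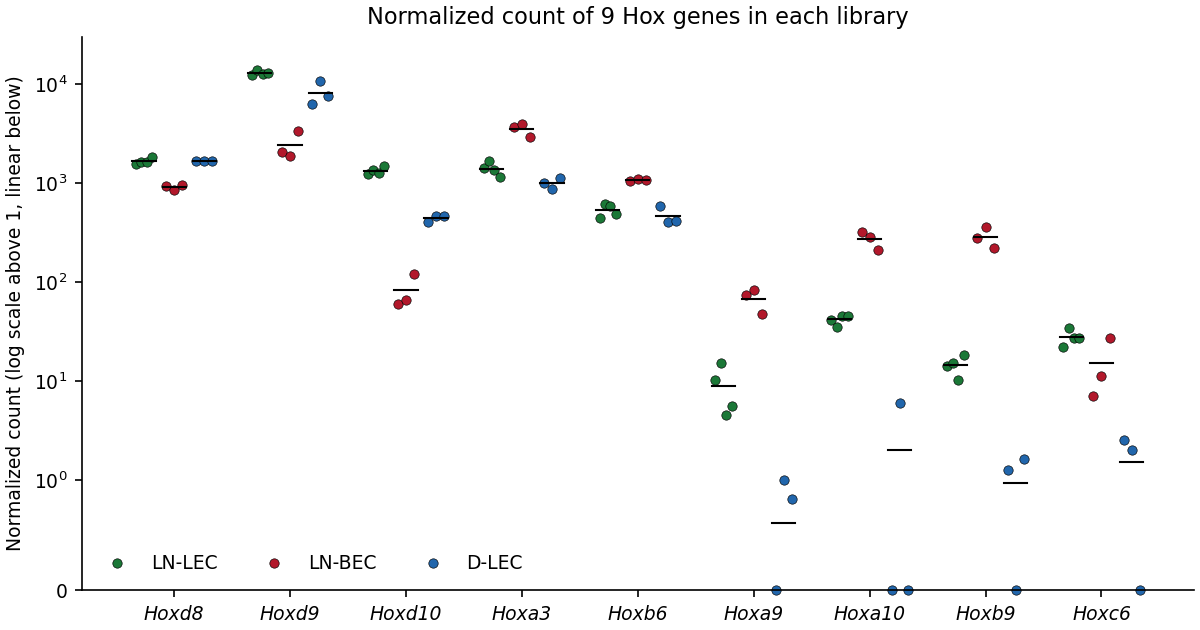
Normalized count (y axis, log scale above 1 and linear below) of 9 Hox genes in each library, with points for libraries and black lines for the mean of each population. LN-BEC (red) lies below both LEC populations for Hoxd8, Hoxd9 and Hoxd10 and above them for Hoxa3, Hoxb6, Hoxa9, Hoxa10 and Hoxb9, while the D-LEC points (blue) of Hoxa9, Hoxa10, Hoxb9 and Hoxc6 reach 0.

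The promoters of Hoxd9 and Hoxd10 are given because these neighbours moved together (RefSeq, GRCm38.p6, the 250 bases before the start of the gene, plus strand). Hoxd9 is at chr2:74697513-74697762 and Hoxd10 at chr2:74691641-74691890 of that build, and capitals mark CG dinucleotides.
Hoxd9: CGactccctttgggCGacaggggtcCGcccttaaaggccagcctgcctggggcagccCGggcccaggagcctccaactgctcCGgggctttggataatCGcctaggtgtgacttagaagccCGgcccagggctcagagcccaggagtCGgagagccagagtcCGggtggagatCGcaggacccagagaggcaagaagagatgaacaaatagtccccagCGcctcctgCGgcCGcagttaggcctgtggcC
Hoxd10: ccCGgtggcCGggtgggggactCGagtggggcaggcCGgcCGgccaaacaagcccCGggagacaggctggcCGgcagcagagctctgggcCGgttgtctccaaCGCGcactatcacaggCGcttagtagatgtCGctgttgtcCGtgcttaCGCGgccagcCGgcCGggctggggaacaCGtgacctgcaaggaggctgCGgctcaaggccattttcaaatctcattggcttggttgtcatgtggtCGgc
They hold 13 and 20 CG dinucleotides. The last capital C of Hoxd9 opens a CG that ends beyond the 250 bases shown, and it is not among the 13. With the 50 bases after the start included, the numbers were 20 and 22, whereas in such windows of 300 bases the median was 14.5 over the 24 promoters found for 22 of the Hox genes and 7 over all 32851 promoters of the table. The motif TGATNNAT, the letters of joint PBX and HOX binding, was searched on both strands and was in neither window, and it was in 4 of the 24 Hox promoters (Hoxd11, Hoxa2, Hoxb8 and Hoxb1) and in 8.85% of all. TTTATNNC, a form preferred by HOX proteins of high number, was also in neither, and it was in 5 Hox promoters (Hoxd11, Hoxd3, Hoxd4, Hoxa10 and Hoxb8) and in 12.6% of all. These are matches of letters, not measured binding.

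The HoxA genes with low numbers, which act in the hindbrain, the neck and the pharyngeal arches of the embryo, were higher in LN-BEC than in either LEC population. Hoxa3, required for the thymus and the parathyroid gland, had 1421, 1668, 1359 and 1155 (LN-LEC), 3709, 3916 and 2892 (LN-BEC), and 1000.2, 864 and 1132 (D-LEC). Its log2 fold change was -1.31 ± 0.14 (SE, adjusted p = 4.09e-06) for LN-LEC over LN-BEC, 1.82 ± 0.15 (SE, adjusted p = 3.41e-07) for LN-BEC over D-LEC and 0.51 ± 0.14 (SE, adjusted p = 0.0096) for LN-LEC over D-LEC, and the libraries did not overlap in any of these. Without D-LEC 2 the last of them was 0.41 with an adjusted p of 0.0567. Hoxa2 had 85.6, 76.2, 58.8 and 94.3 (LN-LEC), 348, 375 and 323 (LN-BEC), and 98.4, 78.2 and 112 (D-LEC), so that the LEC populations overlapped far below LN-BEC, with a log2 fold change of -2.13 ± 0.19 (SE, adjusted p = 7.59e-07) over LN-BEC and -0.26 ± 0.20 (SE, adjusted p = 0.3) over D-LEC for LN-LEC. Hoxa4 gave 40.2, 99, 69 and 42.7 (LN-LEC), 178.6, 183 and 193 (LN-BEC), and 80.7, 42.1 and 51.2 (D-LEC). It followed the same form, with -1.55 ± 0.31 (SE, adjusted p = 0.00108) for LN-LEC over LN-BEC.

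The middle of HoxA was more even. Hoxa5, a regulator of lung and thoracic skeleton development, was the most abundant HoxA gene of D-LEC per length at 22.4 ± 2.81 FPKM (SD, n = 3). Its normalized counts were 985, 1033, 1238 and 928 (LN-LEC), 1499, 1725 and 1469 (LN-BEC), and 1061, 1369.6 and 1340.2 (D-LEC), and its log2 fold change was -0.57 ± 0.12 (SE, adjusted p = 0.00194) for LN-LEC over LN-BEC, with no overlap, and -0.25 ± 0.12 (SE, adjusted p = 0.116) over D-LEC. Hoxa6 had 93.3, 92.7, 80.3 and 60.4 (LN-LEC), 87.5, 125 and 47.3 (LN-BEC), and 41.6, 76.1 and 81 (D-LEC), which overlapped in all 3 populations, and it was not called in any comparison. Hoxa7 departed from the rest with 93.3, 83.8, 105 and 102 (LN-LEC), 178, 203 and 169 (LN-BEC), and 198, 214 and 269 (D-LEC). Here LN-LEC was the lowest, with log2 fold changes of -0.91 ± 0.17 (SE, adjusted p = 0.000712) over LN-BEC and -1.22 ± 0.17 (SE, adjusted p = 5.31e-05) over D-LEC, and LN-BEC and D-LEC overlapped.

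The HoxB genes up to Hoxb7 were detected in every population. Hoxb6, a marker of the trunk and lateral plate, was the leading HoxB gene of LN-BEC per length at 23.9 ± 1.99 FPKM (SD, n = 3), and its normalized counts were 447, 619.5, 590.2 and 483 (LN-LEC), 1044, 1091 and 1077 (LN-BEC), and 583, 408 and 411 (D-LEC). LN-BEC stood above both LEC populations, which overlapped, and the log2 fold change was -0.99 ± 0.14 (SE, adjusted p = 5.88e-05) for LN-LEC over LN-BEC and 1.21 ± 0.15 (SE, adjusted p = 1.63e-05) for LN-BEC over D-LEC. Hoxb2, a hindbrain gene, had 81.7, 72.4, 149 and 161 (LN-LEC), 306, 336 and 337 (LN-BEC), and 252, 221 and 269 (D-LEC). LN-LEC was low in this gene against both other populations, with -1.46 ± 0.24 (SE, adjusted p = 0.000262) over LN-BEC and -1.05 ± 0.24 (SE, adjusted p = 0.00297) over D-LEC, and LN-LEC 1 and LN-LEC 2 lay below LN-LEC 3 and LN-LEC 4. Hoxb4, used in the neck and in blood progenitors, had 608, 637, 746 and 608 (LN-LEC), 945, 964 and 1055 (LN-BEC), and 812, 637 and 709 (D-LEC), with -0.59 ± 0.11 (SE, adjusted p = 0.000505) for LN-LEC over LN-BEC. Hoxb5, which acts in early endothelial precursors, had 329, 359, 443 and 374 (LN-LEC), 479.7, 628 and 524 (LN-BEC), and 447, 231 and 331 (D-LEC). Its log2 fold change of -0.51 ± 0.18 (SE, adjusted p = 0.0418) was not called without LN-LEC 1, LN-LEC 2, LN-LEC 4, LN-BEC 2, LN-BEC 3 or D-LEC 3, with adjusted p-values of 0.0568 to 0.172 and log2 fold changes of -0.55 to -0.39.

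Hoxb3 and Hoxb7 were the detected HoxB genes that were not called between the vessel types of the nodes. Hoxb3 had 1158, 1077, 1071 and 917 (LN-LEC), 1096, 1068 and 986 (LN-BEC), and 1323, 1128 and 1298 (D-LEC), and its log2 fold change was 0.021 ± 0.10 (SE, adjusted p = 0.895) for LN-LEC over LN-BEC and -0.22 ± 0.10 (SE, adjusted p = 0.0731) over D-LEC. Hoxb7 had 509, 531, 619 and 512 (LN-LEC), 552, 701 and 639.6 (LN-BEC), and 353, 389 and 407 (D-LEC), with -0.20 ± 0.11 (SE, adjusted p = 0.187) over LN-BEC and 0.52 ± 0.12 (SE, adjusted p = 0.00236) over D-LEC. D-LEC was the lowest for Hoxb7 without overlap. Hoxb8, between Hoxb7 and Hoxb9, had counts of 6, 5, 4 and 6 in LN-LEC, 2, 2 and 4 in D-LEC and 13, 6 and 16 in LN-BEC, far below its neighbours on both sides in LN-BEC. Its log2 fold change of 2.02 ± 0.69 (SE, adjusted p = 0.0263) for LN-BEC over D-LEC rests on these few counts and was not called without LN-BEC 1, LN-BEC 3, D-LEC 1 or D-LEC 2 (adjusted p from 0.0573 to 0.0998, log2 fold change from 1.62 to 1.99). Hoxb1 had 3 counts and Hoxb13 had 0 over all libraries.

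The HoxA and HoxB genes of groups 9 and 10 were highest in LN-BEC, low in LN-LEC and at the edge of detection in D-LEC. Hoxb9, which acts in the thoracic skeleton, had 14.3, 15.2, 10.2 and 18.2 (LN-LEC), 279, 362 and 221 (LN-BEC), and 1.26, 0 and 1.65 (D-LEC), and the 3 populations did not overlap. The log2 fold change was -4.26 ± 0.30 (SE, adjusted p = 8.04e-08) for LN-LEC over LN-BEC. In D-LEC it had raw counts of 1, 0 and 2, against 319, 419 and 210 in LN-BEC and 11, 12, 9 and 29 in LN-LEC. The ratio of pooled levels was 292 (95% counting interval 99.5 to 1417) for LN-BEC to D-LEC and 15.1 (95% counting interval 4.94 to 75.4) for LN-LEC to D-LEC, where the interval covers counting error only. The fit gave log2 fold changes of 8.01 ± 0.48 (SE, adjusted p = 8.34e-09) and 3.75 ± 0.54 (SE, adjusted p = 7.02e-05), whose size depends on the prior count.

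Hoxa9, which is also a gene of blood stem cells, had 10.4, 15.2, 4.52 and 5.66 (LN-LEC), 74.4, 83 and 47.3 (LN-BEC), and 0, 1 and 0.826 (D-LEC). LN-BEC and LN-LEC did not overlap, with a log2 fold change of -2.95 ± 0.46 (SE, adjusted p = 0.000138) for LN-LEC over LN-BEC. Against the 2 counts of D-LEC the ratio was 104 (95% counting interval 28.5 to 867) for LN-BEC and 12.3 (95% counting interval 3.14 to 106) for LN-LEC, and the fitted log2 fold changes were 6.45 ± 0.70 (SE, adjusted p = 3.70e-06) and 3.51 ± 0.76 (SE, adjusted p = 0.00189). Hoxa10, a gene of the lumbar spine and the uterus, had 41.5, 35.5, 45.2 and 45.9 (LN-LEC), 319.5, 282 and 209 (LN-BEC), and 0, 6.01 and 0 (D-LEC). The populations again did not overlap, and the log2 fold change was -2.66 ± 0.39 (SE, adjusted p = 0.000101) for LN-LEC over LN-BEC, 6.99 ± 0.61 (SE, adjusted p = 6.97e-07) for LN-BEC over D-LEC and 4.33 ± 0.62 (SE, adjusted p = 8.14e-05) for LN-LEC over D-LEC. All 6 counts of Hoxa10 in D-LEC were in D-LEC 2. Without that library the fitted log2 fold changes over D-LEC, then against 0 counts, were 11.12 and 8.46 and are no measure of size.

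In LN-LEC the level of Hoxa10 was 13.2% to 17% of the LN-BEC mean, that of Hoxa9 6.63% to 22.3% and that of Hoxb9 3.54% to 6.34%. The blood endothelial markers Flt1, Nrp1, Vwf, Notch4, Sox17 and Cd34 were at 0.662% to 3.22% of their LN-BEC means in the same libraries, and the other marker of the list, Plvap, had means of 17202 ± 813 normalized counts (SD, n = 4) in LN-LEC and 38489 ± 4843 (SD, n = 3) in LN-BEC. Markers of other cells differed between the populations as well. All 6 pericyte and smooth muscle markers had counts in every population and summed to 3166 to 5178 in LN-LEC, 164 to 329.7 in D-LEC and 5604 to 7074 in LN-BEC. In the lymph node populations most of this sum was Rgs5, with means of 3856 in LN-LEC and 4393 in LN-BEC. The other markers of this list had lower means in LN-LEC than in LN-BEC, such as Acta2 with 213 and 872, and of them only Des was not called. The 7 leukocyte markers, all with counts in every population, summed to 199.6 to 245 in LN-LEC, 94.2 to 198 in D-LEC and 632 to 1013 in LN-BEC. The 8 fibroblast markers summed to 4573 to 9023, 3209 to 10029 and 2969.8 to 10206 in the same order, with Ccl19 at 0 in D-LEC. The part of such cells in the counts of Hoxa9, Hoxa10, Hoxb9 and HoxC was not tested.

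HoxC was sparse, and Hoxc6, Hoxc8, Hoxc9 and Hoxc10 were lowest in D-LEC. Hoxc6 had 22, 34.3, 27.1 and 27 (LN-LEC), 7, 11.2 and 27.3 (LN-BEC), and 2.52, 2 and 0 (D-LEC), with log2 fold changes of 4.23 ± 0.76 (SE, adjusted p = 0.000431) for LN-LEC over D-LEC and 3.34 ± 0.80 (SE, adjusted p = 0.00344) for LN-BEC over D-LEC, and D-LEC did not overlap with the others. Hoxc8 had 24.6, 21.6, 13.6 and 15.1 (LN-LEC), 44.6, 26.8 and 36.8 (LN-BEC), and 3.78, 1 and 4.96 (D-LEC), with 2.47 ± 0.54 (SE, adjusted p = 0.00188) and 3.41 ± 0.55 (SE, adjusted p = 0.000153). Both genes act in the thoracic region, and they were not called between the lymph node populations, where the log2 fold changes were 0.89 ± 0.56 (SE, adjusted p = 0.236) and -0.94 ± 0.42 (SE, adjusted p = 0.0989). Hoxc9 and Hoxc10 had 0 counts in D-LEC. Over LN-BEC, Hoxc10 had 23 counts and Hoxc9 had 10, at least 7.08-fold and at least 3.08-fold higher than in D-LEC, and over LN-LEC they had 8 and 11 counts, at least 1.98-fold and at least 2.73-fold higher. Their fitted log2 fold changes for LN-BEC over D-LEC were 5.91 ± 1.44 (SE, adjusted p = 0.00516) and 4.72 ± 1.77 (SE, adjusted p = 0.0461), and for LN-LEC over D-LEC that of Hoxc10 was 4.22 ± 1.56 (SE, adjusted p = 0.0456). Hoxc9 was not called between the LEC populations, at 4.51 ± 1.75 (SE, adjusted p = 0.0547), and LN-LEC 3 had 0 counts of it, as D-LEC did.

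The calls of Hoxc9 and Hoxc10 rested on these few counts. For Hoxc10 between the LEC populations, the call was lost without any of LN-LEC 1, LN-LEC 2, LN-LEC 3 or the LN-BEC and D-LEC libraries, with adjusted p-values of 0.05002 to 0.103. For Hoxc9 between LN-BEC and D-LEC, it was lost without LN-LEC 1, LN-LEC 2, LN-LEC 4, LN-BEC 1, LN-BEC 3 or any D-LEC library, with adjusted p-values of 0.0556 to 0.127. Hoxc4 and Hoxc5, the members towards the low numbers, had 364 and 202 counts over the 10 libraries and were not called in any comparison. Hoxc13 had 3 counts, all in LN-LEC 3, and Hoxc11 and Hoxc12 had 0. Of HoxA, Hoxa11 had 3 counts and Hoxa13 had 0. Thus 9 of the 39 genes were not tested, 5 of them without a count in any library.

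Set side by side by paralogue group, group 9 was mostly HoxD in every library, and group 10 was mostly HoxD in LEC but not in LN-BEC. Hoxd9 made up 99.8% to 99.9% of the group 9 FPKM in LN-LEC libraries, 99.97% to 99.99% in D-LEC and 83.9% to 93.9% in LN-BEC. Hoxd10 made up 97.7% to 98.4% of group 10 in LN-LEC, 99.3% to 100% in D-LEC and 24.2% to 48.6% in LN-BEC, where Hoxa10 supplied most of the rest. Of the LN-BEC libraries, only LN-BEC 3 had Hoxd10 above Hoxa10, at 1.82 and 1.77 FPKM. Without LN-BEC 3 the LN-BEC ranges were 83.9% to 87.6% for Hoxd9 and 24.2% to 28.6% for Hoxd10. In LEC of both organs these groups were thus almost wholly HoxD. Within a library, the FPKM ratio of Hoxd9 to its neighbour Hoxd8 was 4.77 to 5.73 in LN-LEC, 2.59 to 4.3 in D-LEC and 1.5 to 2.4 in LN-BEC. The ratio of Hoxb9 to Hoxb7 ran the other way, at 0.162 to 0.243 in LN-BEC, 0.00774 to 0.0167 in LN-LEC and 0 to 0.00191 in D-LEC. These ratios need no scaling between libraries and were not tested.

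The TALE proteins (PBX, MEIS and PKNOX), which bind DNA together with HOX proteins, were mostly higher in LN-LEC. Of 9 genes tested, 7 were called higher in LN-LEC against D-LEC and 0 lower (backgrounds 24.1% and 21.7%), and 6 were called higher than in LN-BEC and 0 lower (backgrounds 19.8% and 18.4%), with median log2 fold changes of 1.41 and 0.66, beside 0.026 and -0.0081 over all genes. DESeq2 gave the same counts, and 0 were lower at an unadjusted p under 0.05 by either tool. Meis2 led the list per length in LN-LEC, and its levels were 52.6 ± 4.14 FPKM (SD, n = 4) in LN-LEC, 15.3 ± 1.43 (SD, n = 3) in D-LEC and 5.48 ± 0.952 (SD, n = 3) in LN-BEC, with a log2 fold change of 3.04 ± 0.16 (SE, adjusted p = 5.29e-09) for LN-LEC over LN-BEC. Pbx2 was above it in the other populations, at 20.1 ± 0.893 FPKM in D-LEC (SD, n = 3) and 19.8 ± 2.78 in LN-BEC (SD, n = 3). Meis3 differed most between the LEC populations, from 5.21 ± 3.95 normalized counts in D-LEC (SD, n = 3) to 262 ± 31.8 in LN-LEC (SD, n = 4), with a log2 fold change of 5.69 ± 0.45 (SE, adjusted p = 2.11e-07). Between LN-BEC and D-LEC, 3 of the 9 were higher in LN-BEC and 2 in D-LEC (backgrounds 25.6% and 22.5%), with a median log2 fold change of 0.16, beside 0.046 over all genes.

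Retinoic acid, a vitamin A product that turns on Hox genes of low number in the embryo, depends on enzymes that make and degrade it. Of 15 genes of its synthesis, breakdown and reception that were tested, 3 were called higher in LN-LEC and 6 in LN-BEC (backgrounds 19.8% and 18.4%), 4 were higher in LN-LEC and 3 in D-LEC (against 24.1% and 21.7%), and 7 were higher in LN-BEC and 3 in D-LEC (against 25.6% and 22.5%). Their median log2 fold change was -0.56 for LN-LEC over LN-BEC, 0.36 for LN-LEC over D-LEC and 0.43 for LN-BEC over D-LEC, beside -0.0081, 0.026 and 0.046 over all genes. Cyp26b1, which degrades retinoic acid, had 3677 ± 2076 normalized counts in LN-BEC (SD, n = 3), 310.0 ± 95 in LN-LEC (SD, n = 4) and 29 ± 2.94 in D-LEC (SD, n = 3), with a log2 fold change of -3.56 ± 0.39 (SE, adjusted p = 0.000118) for LN-LEC over LN-BEC. Rdh10, which oxidises retinol, led the list per length in LN-BEC, at 124 ± 24.8 FPKM (SD, n = 3), and was at 40.7 ± 4.32 in LN-LEC (SD, n = 4). Aldh1a2, which makes retinoic acid, had 219 ± 126 normalized counts in D-LEC (SD, n = 3) and 5.21 ± 4.69 in LN-LEC (SD, n = 4), with a log2 fold change of -5.35 ± 0.88 (SE, adjusted p = 0.00074) for LN-LEC over D-LEC. It is also a gene of mesothelium, and the 6 mesothelial markers, each with counts in every population, summed to 717 to 2190.4 in D-LEC, 30.5 to 82.4 in LN-LEC and 26.8 to 146 in LN-BEC. The 9 skeletal muscle markers summed to 1012 to 1391 in D-LEC, 30.8 to 46.7 in LN-LEC and 82.2 to 104 in LN-BEC, with Pax7 and Myod1 at 0 in the lymph node populations. The part of mesothelium and muscle in Aldh1a2, or in the higher Hoxa7 and Hoxb2 of D-LEC, was not tested.

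**Figure D5:**
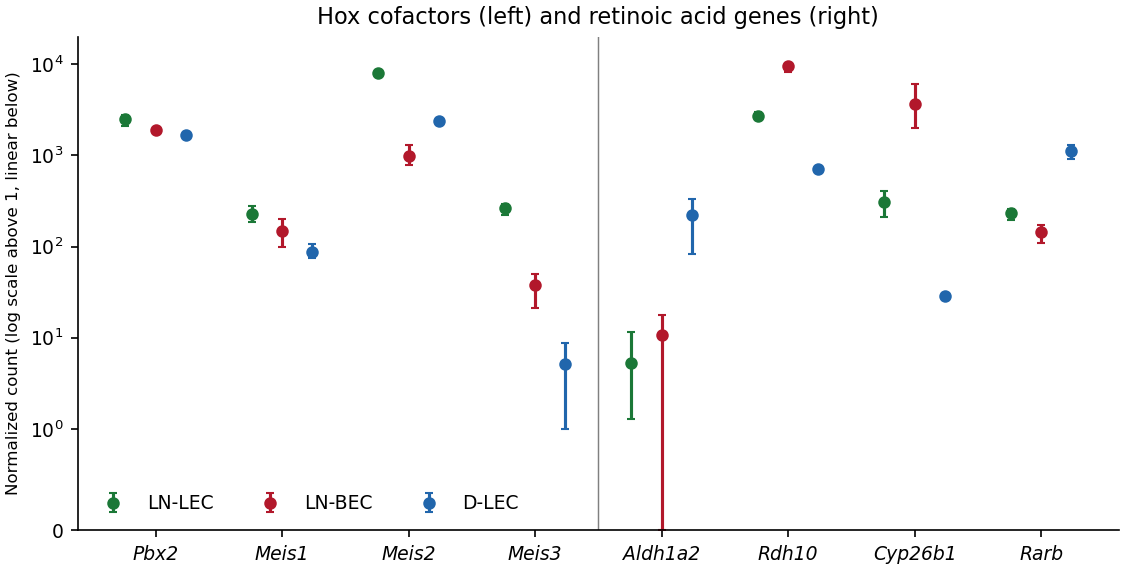
Normalized count (y axis, log scale above 1 and linear below) of 4 PBX and MEIS genes (left) and 4 retinoic acid genes (right) in LN-LEC (n = 4), LN-BEC (n = 3) and D-LEC (n = 3); points are means and bars run from the lowest to the highest library. Meis2 and Meis3 are highest in LN-LEC, Rdh10 and Cyp26b1 in LN-BEC, and Aldh1a2 and Rarb in D-LEC.

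The chromatin regulators that hold Hox genes silent or active had small differences. Of 19 Polycomb and related genes tested, 3 were called higher in LN-LEC and 0 in LN-BEC (backgrounds 19.8% and 18.4%), and 3 were higher in LN-LEC and 4 in D-LEC (against 24.1% and 21.7%), with median log2 fold changes of 0.030 and 0.051, beside -0.0081 and 0.026 over all genes. By edgeR and by DESeq2, 1 was higher in LN-BEC at an unadjusted p under 0.05 and 0 after adjustment. Bmi1, a subunit of Polycomb complex PRC1, had a log2 fold change of -0.86 ± 0.10 (SE, adjusted p = 1.30e-05) for LN-LEC over D-LEC. Ezh2, the enzyme that methylates histone H3, had 0.43 ± 0.12 (SE, adjusted p = 0.0123) over LN-BEC, and Rnf2, another subunit of PRC1, stood at 33.4 ± 1.59 FPKM in LN-LEC (SD, n = 4). Of 9 trithorax-side genes, 1 was higher in LN-LEC and 1 in LN-BEC, and 1 was higher in LN-LEC and 2 in D-LEC, beside the same backgrounds. They included Men1, a subunit of MLL complexes, at 0.69 ± 0.10 (SE, adjusted p = 0.000106) over LN-BEC, and Myst3, a histone acetyltransferase, at -0.50 ± 0.10 (SE, adjusted p = 0.0011) over D-LEC. The row of the list with the highest level in LN-LEC was Mll2 at 26.5 ± 4.52 FPKM (SD, n = 4). It was taken as Kmt2b by an older symbol, and whether the row is that gene was not checked. Between LN-BEC and D-LEC, 3 of the Polycomb and related genes were higher in LN-BEC and 6 in D-LEC (backgrounds 25.6% and 22.5%). Of the trithorax-side genes 1 was higher in LN-BEC there and 2 in D-LEC, and their median log2 fold changes were -0.050 for LN-LEC over LN-BEC, -0.015 for LN-LEC over D-LEC and -0.13 for LN-BEC over D-LEC, where that over all genes was 0.046. The Cdx genes, embryonic activators of Hox clusters, had too few counts to be tested, with Cdx2 and Cdx4 at 0 in every library.

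The Hox clusters also carry microRNA genes, which repress Hox transcripts among others. The mature sequences are shown because the 2 families are defined by their seeds, bases 2 to 8 in capitals (RefSeq, GRCm38.p6).
miR-10a-5p: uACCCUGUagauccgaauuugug
miR-10b-5p: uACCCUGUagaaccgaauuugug
miR-196a-5p: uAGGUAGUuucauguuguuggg
miR-196b-5p: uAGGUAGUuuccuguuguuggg
The miR-10 genes lie beside Hoxb4 and Hoxd4 and share a seed, and the miR-196 genes lie beside the group 9 and 10 genes of HoxA, HoxB and HoxC and share the other. Of 16 noncoding genes of the clusters that were looked for, 8 were rows of the table, 4 were tested and 0 were called in any of the 3 comparisons by edgeR or DESeq2, nor had any an unadjusted p under 0.05. Per length the highest was Mir10b, whose hairpin row had a mean of 1.03 FPKM in LN-LEC, 1.5 in D-LEC and 2.15 in LN-BEC. These means rest on only 9, 9 and 16 counts over all libraries of each population. Mature microRNA is not measured by such libraries, so these counts give no level of it.

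Genes that flank the clusters were called in both directions. Of 10 tested, 3 were higher in LN-LEC and 1 in LN-BEC (backgrounds 19.8% and 18.4%), 1 was higher in LN-LEC and 3 in D-LEC (against 24.1% and 21.7%), and 2 were higher in LN-BEC and 5 in D-LEC (against 25.6% and 22.5%), with median log2 fold changes of 0.040, -0.11 and -0.24, beside -0.0081, 0.026 and 0.046 over all genes. Ttll6, near HoxB and a tubulin-modifying enzyme of cilia, had 51.3 ± 12.3 normalized counts in D-LEC (SD, n = 3) and 0.317 ± 0.635 in LN-LEC (SD, n = 4), with a log2 fold change of -7.09 ± 0.71 (SE, adjusted p = 1.96e-06) for LN-LEC over D-LEC. LN-LEC held 1 count of it in all, so the fitted size depends on the prior count, and the ratio of pooled levels was 214 (95% counting interval 37.8 to 8494) for D-LEC to LN-LEC. Skap1, an adaptor of T cells on the other flank of HoxB, had -2.83 ± 0.65 (SE, adjusted p = 0.00349) over LN-BEC, where the sum of the leukocyte markers was also highest. Among these markers Lyz2 went the other way, with means of 83.7 normalized counts in LN-BEC, 123 in LN-LEC and 116 in D-LEC. The part of leukocytes in the Skap1 counts was not tested. Beside HoxA, Skap2 was at 31.9 ± 3.47 FPKM and Snx10 at 46.4 ± 2.25 in LN-LEC (SD, n = 4). Evx2, next to Hoxd13, was at 0 counts in every library.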

How the data were processed

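RNA of LN-LEC (4 libraries), LN-BEC (3 libraries) and D-LEC (3 libraries) was amplified with the Ovation RNA-Seq V2 kit and sequenced as paired reads of 100 bases. The deposited values are raw counts of fragments per gene, made by the authors with featureCounts 1.4.4 from STAR alignments to mm9, with no strand option, with the exon length beside them, and all columns of library values were used. Normalized counts were counts over DESeq2 size factors (for values per library and means), and FPKM was computed from counts, counted fragments and the deposited exon length. Genes were tested with the edgeR 4.0.16 quasi-likelihood test (R 4.3.3, TMM, all 10 libraries in a fit) with Benjamini-Hochberg adjustment over 15340 genes within a comparison, and called at an adjusted p under 0.05. Tested genes had no clone name and a mean normalized count of at least 1 in a population. Standard errors were derived from the F statistic. The procedure was checked on simulated data. Counts of 3 correspond to 0.0613 to 0.134 per 1000000 fragments, and intervals cover counting error only. Folds given as at least a value set the higher group over a floor of 3 counts, and they leave out the counting error of the higher group. Libraries that pool several mice were the replicates. The labels give no batch, date or pairing, and where they do not state separate pools of animals, p-values measure only the spread between these libraries.

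Values per library were given for Hox genes with a mean of at least 1 FPKM in a population, full statistics for the called genes (up to 8 per comparison) whose log2 fold change was largest in size and for neighbours set against them, and from each regulator list the called gene with the largest change and the most abundant gene by the mean over populations. Pbx2, Meis1 and Rarb in the plot of cofactors, and Snx10, Tbx1 and Prrx2, were picked after their values were seen. The Hox genes and lists were chosen with earlier results of these data known. Alternatives were DESeq2 1.42.0 (Wald test), its size factors in edgeR, no filter, a filter of 1 FPKM, fits of the 2 populations compared and leaving out each library. Several noncoding genes of the clusters were not analysed here, and some items that enter the counts are not reported here.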

Additional observations from a re-analysis of the deposited data

Results flagged for a closer look

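In a check of the 19 detected Hox genes for libraries far from their group, which could be made only in LN-LEC with its 4 libraries, Hoxd4 had a library apart. LN-LEC 4 had 1015 normalized counts of Hoxd4, while the nearest library had 1218 and the highest 1251, so that the gap was 0.863 of the range and above Dixon's 95% critical value for 4 samples. Chance gives such a value in about 1 in 20 groups. LN-LEC 4 stayed above the LN-BEC libraries, the highest of which had 899.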

How the results depend on the processing

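Over 15 other settings (5 of them other processing, the rest leaving out a library), the log2 fold changes of the 51 called pairs of gene and comparison kept their direction throughout, and 45 were called in every setting that tested them. Of 752 values, 38 lost the call and 0 reversed, all in Hoxa3, Hoxd9 and Hoxc10 (LN-LEC vs D-LEC), Hoxb5 (LN-LEC vs LN-BEC), and Hoxb8 and Hoxc9 (LN-BEC vs D-LEC). Fits of only the compared populations lost Hoxc10, Hoxb8 and Hoxc9, with adjusted p-values of 0.0686, 0.0551 and 0.0641, and DESeq2 lost Hoxc10 and Hoxc9 at 0.0629 and 0.0781. A filter of 1 FPKM tests fewer Hox genes by construction. With it, LN-LEC exceeded D-LEC in 6 genes in place of 10 (2 in place of 6 with at least 5-fold), LN-BEC exceeded D-LEC in 10 in place of 16 (2 in place of 7), and LN-BEC exceeded LN-LEC by at least 5-fold in 2 in place of 4. With a library left out, the genes of at least 5-fold excess in LN-LEC over LN-BEC numbered 1 to 2, and those of D-LEC over LN-BEC 0 to 1. At 0.1 FPKM and 10 counts, detected genes numbered 22 (LN-LEC), 23 (LN-BEC) and 18 (D-LEC). Hoxa10 was then detected in LN-LEC as well as in LN-BEC, whereas Hoxb9 was not detected in LN-LEC, with 9 counts in LN-LEC 3. No paired analysis was possible because replicate numbers only name the libraries and the labels pair none. Depth limits the genes with few counts, where 3 counts are the floor.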

Other observations

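Other homeobox and T-box genes that carry regional or organ identity were called in both directions. Of 26 tested, 8 were higher in LN-LEC and 3 in D-LEC (backgrounds over all genes 24.1% and 21.7%), 5 were higher in LN-LEC and 7 in LN-BEC (against 19.8% and 18.4%), and 10 were higher in LN-BEC and 4 in D-LEC (against 25.6% and 22.5%), with median log2 fold changes of 0.31, -0.52 and 0.82, beside 0.026, -0.0081 and 0.046 over all genes. Meox1, a gene of the somites, led the list per length in LN-BEC and D-LEC, and its levels were 105 ± 12.6 FPKM in LN-BEC (SD, n = 3), 41.6 ± 8.49 in LN-LEC (SD, n = 4) and 87.1 ± 7.57 in D-LEC (SD, n = 3). Pitx1, which specifies the hindlimb, was called between the LEC populations with a log2 fold change of 4.64 ± 1.51 (SE, adjusted p = 0.0237) for LN-LEC over D-LEC, from 10.5 ± 11.9 normalized counts in LN-LEC (SD, n = 4) and 0.42 ± 0.728 in D-LEC (SD, n = 3). D-LEC held 1 count of it, so the fitted size depends on the prior count, and the ratio of pooled levels was 41.7 (95% counting interval 7.18 to 1674), where the interval covers counting error only. Lhx6, a LIM homeobox gene of the jaw and of interneurons, had 804 ± 79.6 in LN-BEC (SD, n = 3) and 9.66 ± 5.02 in LN-LEC (SD, n = 4), a log2 fold change of -6.30 ± 0.35 (SE, adjusted p = 2.77e-08) for LN-LEC over LN-BEC. Prrx2, a mesenchymal homeobox gene named after its values were seen, had 438 ± 103 there (SD, n = 4), 10.7 ± 13 in LN-BEC (SD, n = 3) and 22.9 ± 11 in D-LEC (SD, n = 3), and log2 fold changes of 5.44 ± 0.72 (SE, adjusted p = 0.000252) for LN-LEC over LN-BEC and 4.23 ± 0.65 (SE, adjusted p = 0.000588) over D-LEC.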
